A study of Mus musculus with 9 samples.

Results

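Csprs, Extl1, Efnb2, Elovl7, Esrp2 and Klhl30 are 6 of the 16876 genes in a count table of mouse natural killer (NK) cells. They were chosen from the measured values, as genes with a large difference between cells given TGF-β1 and cells given the Smad3 inhibitor SIS3 ahead of TGF-β1, and as genes not known for a part in stress pathways. For that reason their values in that contrast are given as a description, with no test. The cells were grown from bone marrow of C57BL/6 mice, and all 9 libraries share the same culture. Its first 4 days, in MEM-α, used SCF at 30 ng/mL, Flt3L at 10, IL-7 at 1 and IL-15 at 50. A further week used IL-2 at 20 ng/mL beside the same IL-15. The groups hold 3 libraries each. Ctrl cells had no treatment, TGFb cells had 3 h of TGF-β1 (5 ng/mL), and SIS3_TGFb cells had 3 h of SIS3 (10 µM) followed by the same 3 h of TGF-β1. The titles of the SIS3_TGFb libraries name only SIS3, whereas their treatment text names both agents. There is no group with SIS3 alone, so an effect of SIS3 on the TGF-β1 response and an effect of SIS3 by itself cannot be told apart. The labels do not mention a solvent control. Nothing in the labels says whether replicates were separate mice or cultures, so p-values measure spread between libraries that may be technical.

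TGF-β1 binds a receptor kinase pair on the cell surface that phosphorylates Smad2 and Smad3, which then enter the nucleus with Smad4 and change transcription. In NK cells the cytokine is known for lowering cytotoxicity, cytokine output and activating receptors. SIS3 is a small molecule described as blocking the phosphorylation of Smad3. The 6 genes belong to unrelated families. Efnb2 encodes ephrin-B2, a transmembrane ligand of Eph receptor kinases. Extl1 encodes a glycosyltransferase of heparan sulfate synthesis, and Elovl7 encodes an enzyme of the endoplasmic reticulum that lengthens long-chain acyl-CoA. Csprs takes its name from the repeated Sp100-rs genes of mice, of which it is a component. Esrp2 encodes an RNA-binding protein that regulates alternative splicing in epithelial cells, and Klhl30 encodes a BTB-kelch protein, a family whose members often bring substrates to CUL3 ubiquitin ligases.

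RefSeq promoter windows of GRCm38.p6 were found for 3 of the 6 genes, Extl1, Efnb2 and Elovl7, which share the pattern of a level several-fold higher in SIS3_TGFb than in the other groups. They are shown so that the letters before these start sites can be compared with one another. Each run is the strand of the gene, 5′ to 3′, ending at the base before the start of the gene in RefSeq. GENCODE M21 also lists an Extl1 transcript that starts upstream, at 134383850, so in that annotation the Extl1 window lies inside the gene, with 11 of its bases in an exon. Capitals mark matches on either strand to the CCAAT box (CCAAT), the core of a cAMP response element (TGACG), a Smad-binding element (CAGAC) or the TATA box (TATAAA). The Extl1 window is chr4:134372548-134372797 on the minus strand, the Efnb2 window is chr8:8661243-8661492 on the minus strand, and the Elovl7 window is chr13:108214154-108214325 on the plus strand. The Elovl7 window belongs to a transcript that starts 78 bases inside the gene, so those 78 bases are left out and 172 are shown, while positions below are counted from that transcript's start.
Extl1: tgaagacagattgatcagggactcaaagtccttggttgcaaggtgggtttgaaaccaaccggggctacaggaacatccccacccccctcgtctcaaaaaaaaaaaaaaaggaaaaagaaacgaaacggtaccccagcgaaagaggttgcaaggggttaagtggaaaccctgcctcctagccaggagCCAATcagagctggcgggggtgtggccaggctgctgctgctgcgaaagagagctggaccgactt
Efnb2: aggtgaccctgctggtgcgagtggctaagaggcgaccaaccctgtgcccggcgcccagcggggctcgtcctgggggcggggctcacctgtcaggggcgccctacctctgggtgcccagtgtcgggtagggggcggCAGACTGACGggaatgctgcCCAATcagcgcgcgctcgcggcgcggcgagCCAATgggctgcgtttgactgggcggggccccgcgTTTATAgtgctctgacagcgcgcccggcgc
Elovl7: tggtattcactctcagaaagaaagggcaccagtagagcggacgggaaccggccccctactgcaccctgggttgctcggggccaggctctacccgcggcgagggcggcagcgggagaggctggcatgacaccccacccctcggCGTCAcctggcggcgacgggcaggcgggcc

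The Efnb2 and Elovl7 windows were rich in G and C, at 72.0% and 73.6%, against 53.2% in Extl1 and a median of 52.4% over 32851 windows of the same kind. The Elovl7 value covers the full 250 bases, including the 78 that are left out of the run shown. The CCAAT box was matched 64 bases before the start of Extl1 and 95 and 65 bases before that of Efnb2, and 33.8% of all windows hold it. TGACG was matched 110 bases before the start of Efnb2 and 108 and 62 bases before that of Elovl7, the last of these in the bases left out, and 17.8% of windows hold it. CAGAC was matched in Efnb2 alone of the 3, at 115 bases, directly beside TGACG, and 42.2% of windows hold it. The TATA box was matched in Efnb2 on the opposite strand at 30 bases, and 12.4% of windows hold it. The GC box (GGGCGG), not capitalised, was matched 3 times in Efnb2 and 3 times in Elovl7, and 32.7% of windows hold it. The Elovl7 matches at 75 and 17 bases lie in the bases left out, and the one at 150 bases is in the run shown. TGATGNAA, a form of the element bound by amino acid response factors, matched none of the 3 windows and 3.5% of all windows. TGANTCA, the AP-1 element, also matched none of the 3 and 6.7% of all windows, and the E-box CACGTG matched none of the 3 and 6% of all windows. A match is a run of letters in a window of 250 bases, not a measured binding site, and none of the motifs searched was matched in all 3 windows.

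Library totals ran from 15714973 to 16718673 expected counts, which are estimated reads per gene and need not be whole. Levels are CPM, the counts scaled to library depth with TMM factors, and 12212 genes passed the filter on low counts. All 6 genes passed it, and all 6 also passed with the Ctrl and TGFb libraries alone. The TGF-β1 treatment was checked on a known target: Pmepa1, an inhibitor of TGF-β signalling that the cytokine induces, went from 0.661 ± 0.205 CPM in Ctrl to 137 ± 4.80 CPM in TGFb and 121 ± 6.19 CPM in SIS3_TGFb (SD, n = 3). Of 10 SMAD feedback regulators 9 rose from Ctrl to TGFb, with a median log2 change of 1.40, and 4 rose and 3 fell from TGFb to SIS3_TGFb, or 5 and 1 without scaling factors. TGFb replicate 3 stood apart from its group on the second principal component, at -33.1 against -14.8 and -18.1. Of 12 NK cell markers 12 were detected past the filter, and their summed level was 20500 to 21600 CPM in Ctrl, 15600 to 17000 in TGFb and 17000 to 17200 in SIS3_TGFb. A single gene, Gzmb, made up 39.3% of that NK sum, so the sum is no count of NK cells. Markers of macrophages and monocytes, with 74% of their sum from Lyz2, summed to 882 to 1170 CPM in Ctrl, 630 to 985 in TGFb and 715 to 1200 in SIS3_TGFb. These ranges overlap. The lowest TGFb sum was that of replicate 3, at 630 CPM against 814 and 985 CPM in replicates 1 and 2. In bulk RNA, a change in the number of cells that hold a transcript and a change in its amount per cell cannot be told apart. The TGFb libraries enter both the step from Ctrl to TGFb and the contrast that chose the genes, with opposite sign. Scatter in TGFb alone would favour a change at the first step opposite to that at the second, so the tests from Ctrl to TGFb given below are not independent of the choice.

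Efnb2 (Entrez 13642, chromosome 8, 8617235 to 8661242, minus strand) was lowest in TGFb and highest in SIS3_TGFb. Its levels were 3.97, 5.18 and 3.77 CPM in Ctrl replicates 1, 2 and 3, then 2.40, 1.95 and 3.33 CPM in TGFb, and 12.6, 16.7 and 12.2 CPM in SIS3_TGFb. The 3 groups did not overlap, and the SIS3_TGFb libraries stood clear of all others. The means were 4.31 ± 0.759, 2.56 ± 0.702 and 13.9 ± 2.45 CPM (SD, n = 3). From Ctrl to TGFb the log2 level fell by 0.76 ± 0.219 (SE, adjusted p = 0.0134 by the quasi-likelihood test of edgeR), in the direction that the choice favours. That call was lost without Ctrl replicate 2 (adjusted p = 0.0722) and without TGFb replicate 2 (adjusted p = 0.068). SIS3_TGFb was 5.43-fold above TGFb, a log2 difference of 2.44 ± 0.188, and 1.68 ± 0.172 above Ctrl on the log2 scale.

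Extl1 (Entrez 56219, chromosome 4, 134356373 to 134372547, minus strand) had the smallest SE of the 4 genes that were several-fold higher in SIS3_TGFb. Its levels were 5.74, 6.66 and 4.99 CPM in Ctrl, 4.06, 4.52 and 4.86 CPM in TGFb, and 28.1, 30.0 and 26.2 CPM in SIS3_TGFb. TGFb lay just under Ctrl without overlap, and SIS3_TGFb lay far above both. The means were 5.79 ± 0.834, 4.48 ± 0.399 and 28.1 ± 1.87 CPM (SD, n = 3). The step from Ctrl to TGFb fell by 0.37 ± 0.135 on the log2 scale (SE, edgeR adjusted p = 0.0428). This call was weak: 8 of 15 alternative settings ended it, and the adjusted p ran from 0.018 to 0.187. SIS3_TGFb was 6.27-fold above TGFb, a log2 difference of 2.65 ± 0.108, and 2.28 ± 0.103 above Ctrl on the log2 scale.

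Elovl7 (Entrez 74559, chromosome 13, 108214326 to 108287109, plus strand) was low in Ctrl and TGFb alike. Its levels were 1.14, 1.05 and 1.22 CPM in Ctrl, 1.85, 1.28 and 1.26 CPM in TGFb, and 6.62, 8.43 and 6.56 CPM in SIS3_TGFb. The TGFb libraries lay barely above Ctrl, with 1 of them apart from the other 2, and SIS3_TGFb was far above both groups. The means were 1.13 ± 0.085, 1.46 ± 0.331 and 7.20 ± 1.06 CPM (SD, n = 3). The log2 change of 0.37 ± 0.258 from Ctrl to TGFb did not pass the test (SE, edgeR adjusted p = 0.3). SIS3_TGFb was 4.89-fold above TGFb, a log2 difference of 2.29 ± 0.193, and 2.66 ± 0.201 above Ctrl on the log2 scale. Behind these levels stood 17 to 30 expected counts per library in Ctrl and TGFb and 112 to 145 in SIS3_TGFb.

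Csprs (Entrez 114564) is placed by GENCODE M21 on the scaffold GL456221.1, 111572 to 163011, minus strand, which has no fixed position on a chromosome. Its levels were 1.07, 1.05 and 0.365 CPM in Ctrl, 0.923, 0.488 and 0.799 CPM in TGFb, and 5.49, 6.28 and 4.59 CPM in SIS3_TGFb. Ctrl and TGFb overlapped, and every SIS3_TGFb library was above them. The means were 0.828 ± 0.401, 0.737 ± 0.224 and 5.45 ± 0.846 CPM (SD, n = 3). The log2 change of -0.17 ± 0.397 from Ctrl to TGFb did not pass the test (SE, edgeR adjusted p = 0.788), and its direction turned when single libraries were left out, from -0.524 to 0.064. SIS3_TGFb was 7.35-fold above TGFb, a log2 difference of 2.88 ± 0.288. Ctrl and TGFb libraries held only 6 to 17 expected counts each. Its expected counts were not whole in 4 of 9 libraries, against 0 libraries for each of the other 5 genes, so reads shared with near-identical copies of this repeat may be counted in it and its level is uncertain.

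**Figure D1:**
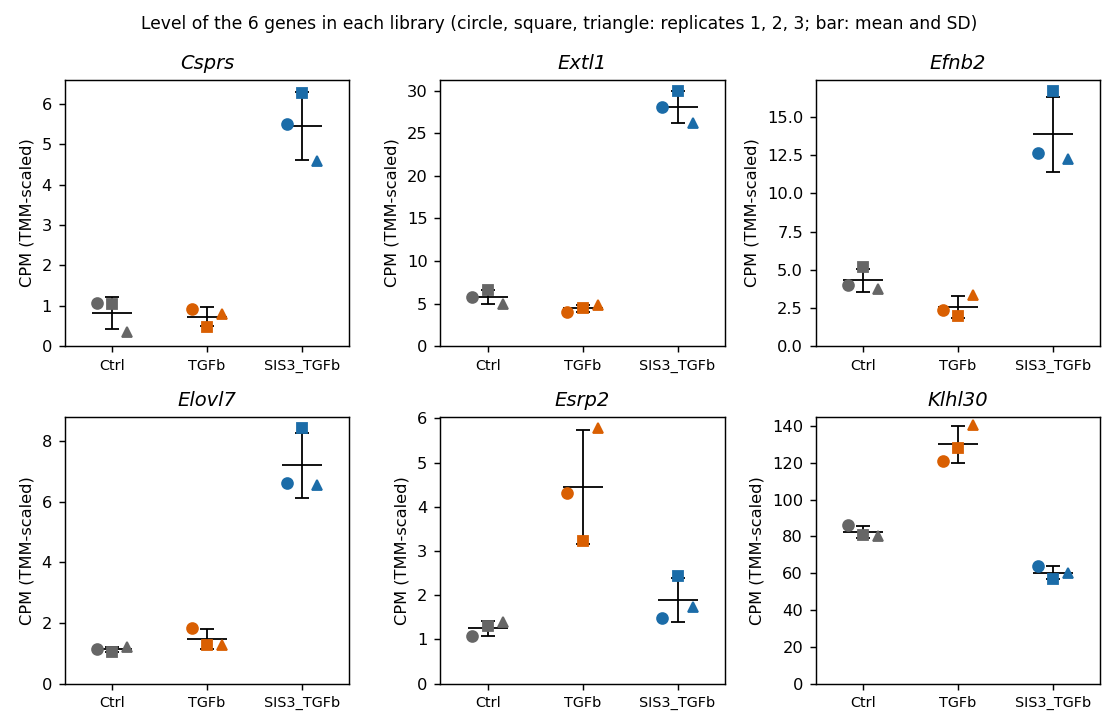
Level in CPM (TMM-scaled, linear axis from 0, a separate scale per gene) of the 6 genes in each library of Ctrl, TGFb and SIS3_TGFb; circle, square and triangle are replicates 1, 2 and 3, and bars give the mean and SD. Csprs, Extl1, Efnb2 and Elovl7 are high in the 3 SIS3_TGFb libraries, while Esrp2 and Klhl30 are highest in the 3 TGFb libraries.

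Esrp2 (Entrez 77411, chromosome 8, 106130319 to 106137193, minus strand) was high in TGFb only. Its levels were 1.07, 1.29 and 1.40 CPM in Ctrl, 4.31, 3.23 and 5.79 CPM in TGFb, and 1.48, 2.44 and 1.74 CPM in SIS3_TGFb. The TGFb libraries stood above all others, and SIS3_TGFb lay narrowly above Ctrl with no overlap. The means were 1.25 ± 0.167, 4.45 ± 1.28 and 1.89 ± 0.498 CPM (SD, n = 3). Counts were low, at 17 to 23 expected counts per library in Ctrl, 53 to 87 in TGFb and 25 to 42 in SIS3_TGFb. From Ctrl to TGFb, Esrp2 rose by 1.81 ± 0.261 on the log2 scale (SE, edgeR adjusted p = 4.59e-05), and by 1.58 without TGFb replicate 3. SIS3_TGFb was 2.34-fold below TGFb, a log2 difference of -1.23 ± 0.241, and 0.58 ± 0.294 above Ctrl on the log2 scale. Esrp2 overlaps 2 genes of the opposite strand that are in the table, by 1575 bp with 1810019D21Rik and by 219 bp with Nfatc3. The labels do not say how counting treated strand, so reads of the shared stretches cannot be told apart. Counts of 1810019D21Rik were 1 to 9 per library, and Nfatc3, a transcription factor activated by calcineurin, had log2 changes of -0.07 ± 0.038 from Ctrl to TGFb and 0.16 ± 0.038 from TGFb to SIS3_TGFb.

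Esrp2 is known from epithelia, so epithelial markers were counted beside it. Its paralogue Esrp1 had 0 to 1.97 expected counts per library, the keratin gene Krt8 had 0 to 1 and the claudin gene Cldn7 had 0 to 1. Epcam, an adhesion molecule, had 607 to 701 expected counts, and Cdh1 (E-cadherin) had 1029 to 3079. The epithelial list, of which 8 of 10 genes were in the table and 3 were tested, summed to 104 to 108 CPM in Ctrl, 186 to 210 in TGFb and 189 to 221 in SIS3_TGFb. Cdh1 made up 76.8% of that sum. The part of this list in the Esrp2 result was not tested.

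Klhl30 (Entrez 70788, chromosome 1, 91351073 to 91362404, plus strand) was the most abundant of the 6 genes and had the smallest SE. Its levels were 86.2, 80.9 and 80.3 CPM in Ctrl, 121, 128 and 141 CPM in TGFb, and 64.0, 56.6 and 60.3 CPM in SIS3_TGFb. The groups did not overlap: TGFb was highest, Ctrl lay between, and SIS3_TGFb was lowest. The means were 82.4 ± 3.29, 130 ± 9.85 and 60.3 ± 3.69 CPM (SD, n = 3). From Ctrl to TGFb, Klhl30 rose by 0.66 ± 0.056 on the log2 scale (SE, edgeR adjusted p = 1.33e-07). SIS3_TGFb was 2.16-fold below TGFb, a log2 difference of -1.11 ± 0.057, and also below Ctrl, by a log2 difference of -0.45 ± 0.059.

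Counted together, 4 of the 6 genes passed the test from Ctrl to TGFb, Esrp2 and Klhl30 upward and Extl1 and Efnb2 downward. Over all 12212 genes 34.3% passed, 17.9% upward and 16.4% downward, so changed genes were common at this step. The groups did not overlap in 5 of the 6 genes, against 45% of all genes. All 4 calls ran opposite to the change between TGFb and SIS3_TGFb, which is the direction that the choice favours. These counts are therefore not independent of the choice, and no excess over all genes is read from them. Between TGFb and SIS3_TGFb, 41.8% of all genes passed, 21.2% upward and 20.6% downward, and the groups did not overlap in 51.4%. The 6 genes, chosen for this contrast, did not overlap in 6 of 6 cases, from which nothing is read. Without scaling factors the share of upward calls at that step went from 50.6% to 71.1%, and from 52.2% to 46.6% at the step from Ctrl to TGFb. Between Ctrl and SIS3_TGFb the groups did not overlap in 6 of 6 genes, against 61.1% of all genes, 5 of them higher and Klhl30 lower in SIS3_TGFb; no test is given, since the SIS3_TGFb libraries were used in the choice.

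**Figure D2:**
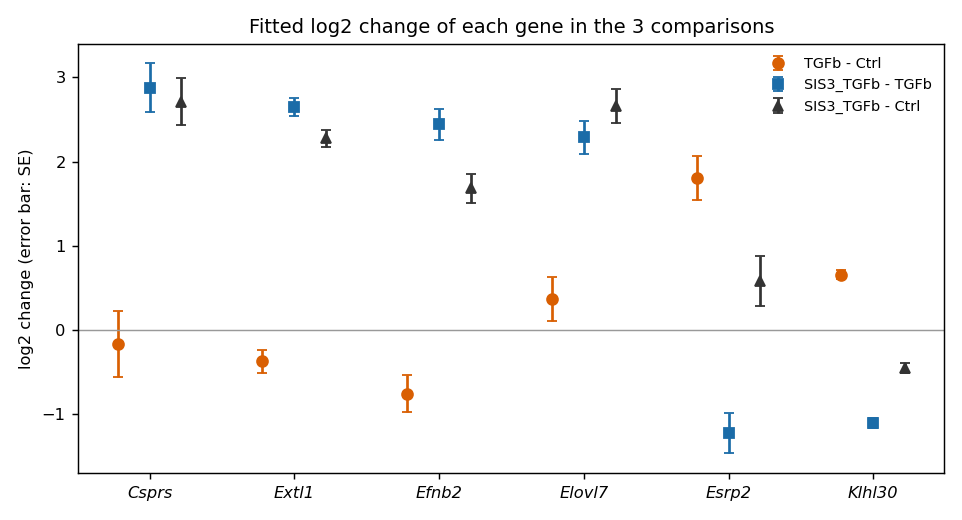
Fitted log2 change of each of the 6 genes (vertical axis, error bars are SE) from Ctrl to TGFb, from TGFb to SIS3_TGFb and from Ctrl to SIS3_TGFb. The 4 genes at the left lie between 1.68 and 2.88 in both SIS3_TGFb contrasts, while Esrp2 and Klhl30 are above 0 from Ctrl to TGFb and below 0 from TGFb to SIS3_TGFb.

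Among all genes tested, the fitted rise from TGFb to SIS3_TGFb ranked 5 for Csprs, 11 for Extl1, 18 for Efnb2 and 23 for Elovl7. The fitted fall ranked 23 for Esrp2 and 33 for Klhl30. The genes therefore sit at both edges of this contrast, as their choice required. Divided by merged exon length, the level in Ctrl was 26.7 CPM per kb for Klhl30 and 1.34 for Extl1. Efnb2 had 0.628 CPM per kb in Ctrl, and the remaining 3 genes had 0.282 to 0.305, an order in which these 3 do not differ beyond their spread. In SIS3_TGFb, Klhl30 was still first at 19.5 CPM per kb, Extl1 followed at 6.48, and Efnb2, Csprs and Elovl7 lay close together at 1.79 to 2.02. Esrp2 was last there at 0.435 CPM per kb, whereas in TGFb it had 1.02, next to Extl1 at 1.03.

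**Figure D3:**
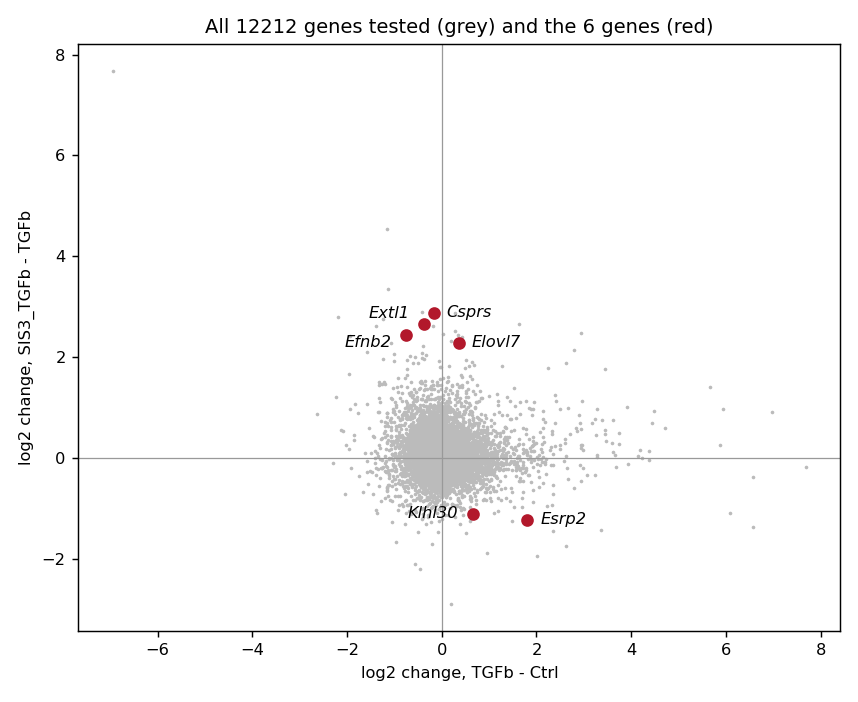
Log2 change from Ctrl to TGFb (horizontal axis) against log2 change from TGFb to SIS3_TGFb (vertical axis) for all 12212 genes tested, in grey, with the 6 genes in red. Both axes share the TGFb libraries; Csprs, Extl1, Efnb2 and Elovl7 lie at 2.29 to 2.88 on the vertical axis, and Esrp2 and Klhl30 at -1.23 and -1.11.

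The library with the highest level within each group was counted over the 6 genes. Each Ctrl replicate was highest in 2 of the 6. SIS3_TGFb replicate 2 was the highest library of its group in 5 of the 6, all but Klhl30, against 34.9% of all genes tested. TGFb replicate 3 was the highest of its group in 4 of the 6, against 36.7% of all genes tested. No test was made of these counts.

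The pattern over the 9 libraries was compared by the root mean square distance between log2 CPM values, each gene centred on its own mean. Genes without a symbol, numbered gene models, Rik clones and LOC entries were left out of the search for nearest genes. Within the 6 genes, Csprs, Extl1, Efnb2 and Elovl7 lay 0.31 to 0.58 log2 units apart, Esrp2 and Klhl30 lay 0.57 apart, and pairs across these sets lay 1.45 to 1.76 apart. The genes were chosen for a large rise or a large fall in these same libraries. The division into sets therefore follows from the choice, and nothing is read from it. Extl1 was nearest to Ddit3 (CHOP, a transcription factor of the integrated stress response) at 0.161 and to Fut1, a fucosyltransferase, at 0.228. Ddit3 had mean levels of 24.7, 19.4 and 127 CPM in Ctrl, TGFb and SIS3_TGFb. Csprs was nearest to Extl1 at 0.434 and then to Ddit3 at 0.453. Efnb2 was nearest to Slc1a4, a transporter of neutral amino acids, at 0.266 and to Gpt2, a mitochondrial alanine transaminase, at 0.271. Slc1a4 had mean levels of 39.2, 29.4 and 124 CPM.

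Elovl7 was nearest to the transcription factor Klf4 at 0.168 and to the arrestin family gene Arrdc3 at 0.189. Klf4 had mean levels of 2.27, 3.10 and 14.7 CPM in Ctrl, TGFb and SIS3_TGFb. Esrp2 was nearest to Myom3, a myomesin of the muscle M-band, at 0.249 and to Chac1, a glutathione-degrading enzyme induced in the integrated stress response, at 0.302. Chac1 had mean levels of 6.25, 17.5 and 7.32 CPM. Klhl30 was nearest to the coronin gene Coro2a at 0.117 and to Errfi1, a feedback inhibitor of the EGF receptor, at 0.139. The distances use the TGFb and SIS3_TGFb values that chose the 6 genes, so genes near to them share a large difference between those groups by construction.

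**Figure D4:**
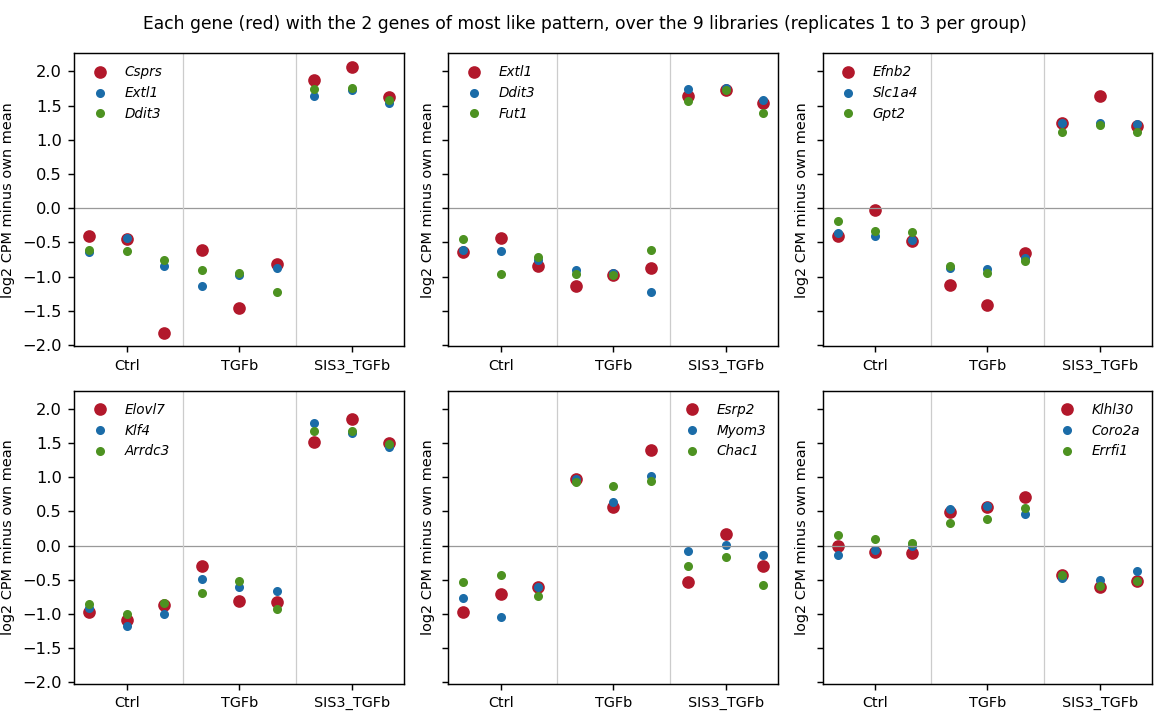
Centred log2 CPM (vertical axis) of each of the 6 genes, in red, and of the 2 genes nearest to it by root mean square distance, over replicates 1 to 3 of Ctrl, TGFb and SIS3_TGFb. Genes without a symbol, numbered gene models, Rik clones and LOC entries were not searched. The closest pair is Klhl30 with Coro2a at 0.117, and the widest shown is Csprs with Ddit3 at 0.453, where Csprs falls low in Ctrl replicate 3 and TGFb replicate 2.

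Relatives and partners of each gene were counted from lists of known families, beside a median log2 change over all genes of -0.004 from Ctrl to TGFb and 0.012 from TGFb to SIS3_TGFb. Of Eph receptors and ephrins, 16 were in the table and 3 beside Efnb2 were tested. From TGFb to SIS3_TGFb 2 of these 3 rose and 0 fell, with a median log2 change of 0.71. Efnb1, the ephrin-B1 ligand, rose at both steps, by 0.57 ± 0.164 and then by 0.71 ± 0.144 on the log2 scale, to 5.78 ± 0.392 CPM; the first rise did not pass with DESeq2 (adjusted p = 0.068). Ephb6, a kinase-inactive Eph receptor, rose at the second step by 1.09 ± 0.297, with overlapping libraries, and did not pass without SIS3_TGFb replicate 1 (adjusted p = 0.051). At the first step Ephb6 had a log2 change of -0.72 ± 0.311, which did not pass. Of 13 partners of ephrin-B reverse signalling, 6 rose and 4 fell from Ctrl to TGFb, and 4 rose and 1 fell from TGFb to SIS3_TGFb, or 7 and 1 without scaling factors; the medians were 0.11 and 0.09. Among them the kinase gene Src rose by 1.63 ± 0.16 at the first step, and Ptpn13, a phosphatase that binds ephrin-B, rose by 0.46 ± 0.093 and 0.50 ± 0.085.

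Of 19 tested genes of heparan sulfate synthesis beside Extl1, 5 rose and 2 fell from Ctrl to TGFb, and 5 rose and 8 fell from TGFb to SIS3_TGFb, with medians of -0.06 at both steps; without scaling factors the second count turned to 6 up and 5 down. The paralogue Extl3, which starts heparan sulfate chains, rose by 1.01 ± 0.046 with TGF-β1 and fell from TGFb to SIS3_TGFb by 0.46 ± 0.044. Its means were 52.0, 104 and 75.8 CPM. Extl2 did not pass at either step, with log2 changes of 0.11 ± 0.122 and 0.10 ± 0.119. Glce, the epimerase that converts glucuronic to iduronic acid in the chain, did not pass at the first step and rose by 1.51 ± 0.071 at the second, from 23.7 ± 0.404 to 67.6 ± 6.46 CPM. The core protein gene Gpc1 (glypican-1) rose by 0.54 ± 0.048 at the second step. Among 8 core proteins tested, 1 rose, 1 fell and 6 did not pass at that step.

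Fatty acid elongation and desaturation had 16 tested genes beside Elovl7, of which 4 rose and 5 fell from Ctrl to TGFb, and 4 rose and 6 fell from TGFb to SIS3_TGFb; without scaling factors the latter turned to 6 up and 4 down. The medians were -0.09 and 0.0. Elovl4 rose by 0.88 ± 0.123 with TGF-β1 and had a further log2 change of 0.36 ± 0.109. Elovl6, which lengthens palmitate, had log2 changes of -0.34 ± 0.102 and -0.43 ± 0.108, and the first was lost without Ctrl replicate 1 or TGFb replicate 1. Elovl1 and Elovl5 had second-step changes of -0.14 ± 0.034 and 0.10 ± 0.047. Scd1, the desaturase that makes oleate, fell by 0.17 ± 0.046 and then by 0.26 ± 0.046.

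The SP100 family and PML bodies, nuclear structures named for Pml, had 11 tested genes beside Csprs. From Ctrl to TGFb 4 rose and 3 fell, with a median of -0.03, and without scaling factors 1 rose and 4 fell. From TGFb to SIS3_TGFb 0 rose and 5 fell, with a median of -0.10, and without scaling factors 2 rose and 5 fell. Over all genes 21.2% rose and 20.6% fell at that second step, and no excess in this list was tested. Sp100 itself rose by 0.54 ± 0.043 with TGF-β1, to 203 ± 12.0 CPM, and fell by 0.38 ± 0.042 at the second step. Pml fell by 0.16 ± 0.042 and 0.54 ± 0.043, and the chromatin remodeller Atrx by 0.18 ± 0.036 and 0.52 ± 0.037.

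Of 14 other regulators of cell type splicing beside Esrp2, 2 rose and 4 fell from Ctrl to TGFb, and 2 rose and 6 fell from TGFb to SIS3_TGFb, or 3 and 3 without scaling factors, with medians of -0.07 and -0.11. Ptbp1, a repressor of exon inclusion, and Celf1 did not pass at the first step and fell at the second by 0.33 ± 0.034 and 0.36 ± 0.04. Among 8 genes whose transcripts are known splicing targets of the ESRP proteins, 2 rose with TGF-β1 and 6 did not pass (median 0.08), and at the second step 0 rose and 1 fell, or 2 and 0 without scaling factors. One of those that rose was Cd44, a hyaluronan receptor, which rose by 0.99 ± 0.046 and did not pass at the second step, at -0.05 ± 0.044. The table counts genes and not exons, so splicing itself was not measured. Of 12 genes of the epithelial state and its transition, 4 rose and 2 fell at the first step, and 2 rose and 2 fell at the second. Among them, Cdh1 rose by 1.28 ± 0.061 with TGF-β1 and had a log2 change of 0.07 ± 0.056 from TGFb to SIS3_TGFb. Vim (vimentin, an intermediate filament of mesenchymal cells and of leukocytes) rose by 0.64 ± 0.066 at the first step and fell by 0.32 ± 0.065 at the second. Zeb1, a repressor of Cdh1 in epithelial-mesenchymal transition, rose by 0.40 ± 0.065 and then by 0.22 ± 0.062, and the second rise did not pass without SIS3_TGFb replicate 1 (adjusted p = 0.057).

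Of 34 BTB-kelch genes and CUL3 partners beside Klhl30, 11 rose and 3 fell from Ctrl to TGFb, and 6 rose and 8 fell from TGFb to SIS3_TGFb, or 9 and 2 without scaling factors, with medians of 0.03 and 0.0. Klhl6, a kelch gene of lymphoid cells, rose by 1.53 ± 0.051 with TGF-β1 and had a log2 change of 0.08 ± 0.045 at the second step. Klhl8 rose at both steps, by 0.96 ± 0.078 and 0.61 ± 0.068.

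**Figure D5:**
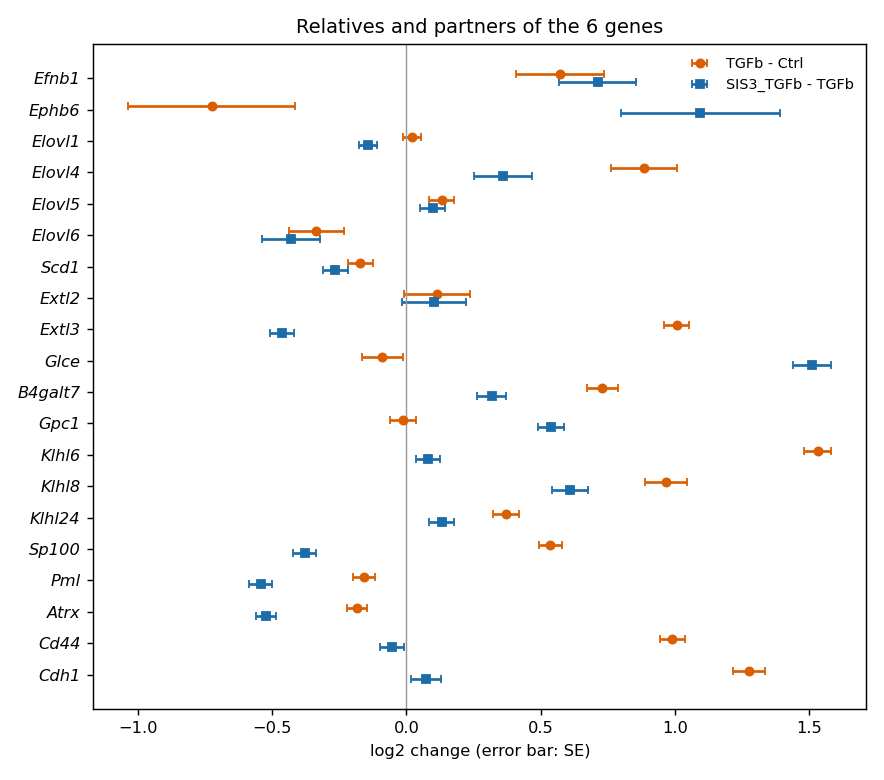
Log2 change (horizontal axis, error bars are SE) of 20 relatives and partners of the 6 genes from Ctrl to TGFb (circles) and from TGFb to SIS3_TGFb (squares). Glce at 1.51 and Ephb6 at 1.09 have the largest second-step changes of the 20 shown, and Klhl6 at 1.53 and Cdh1 at 1.28 the largest first-step changes of the 20.

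The nearest genes on the chromosome gave a local comparison. Arglu1, 5055 bp from Efnb2, had a log2 change of -0.19 ± 0.065 from TGFb to SIS3_TGFb (edgeR adjusted p = 0.0254), and 5 alternative settings ended that call. Shcbp1, the nearest table entry on the other side at 3837668 bp, fell from Ctrl to TGFb by 0.78 ± 0.132 on the log2 scale and did not pass from TGFb to SIS3_TGFb, at 0.34 ± 0.136. Pafah2, 23773 bp from Extl1, did not pass, at 0.08 ± 0.106. On either side of Elovl7, Ercc8, a gene of transcription-coupled repair at 13122 bp, rose by 0.56 ± 0.164 (adjusted p = 0.0132), and Depdc1b at 28905 bp rose by 1.02 ± 0.265 (adjusted p = 0.00597). The Ercc8 call did not hold with DESeq2 (adjusted p = 0.059). Erfe, 3901 bp from Klhl30, did not pass, at 0.42 ± 0.236. Nearer genes on the other side, Slc30a2 at 1889 bp from Extl1 and Espnl at 2770 bp from Klhl30, did not pass the filter on low counts. LOC664787, the neighbour of Csprs, did not pass that filter either, so these genes were not tested.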

How the data were processed

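Poly-A RNA (1 µg for each of 9 libraries) was sequenced on a DNBseq platform with 100 bp paired reads, per the labels. Values are expected counts as deposited by the authors, unscaled; 10.2% to 11.1% of those in a library are not whole. Tools listed in the submitters' processing notes are RSEM, Bowtie2, HISAT2, StringTie, Cufflinks and DESeq2, with builds mm10 and GRCm38. For these tools the versions and roles, and the annotation, are not given in the sources.

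Counts were rounded, 15 genes without a symbol were kept, and genes were filtered by filterByExpr (minimum count 10, minimum total 15). All 9 libraries were fitted together by the quasi-likelihood functions of edgeR 4.0.16 (R 4.3.3), with TMM scaling and Benjamini-Hochberg adjustment over 12212 genes at a threshold of 0.05. P-values are two-sided. SEs were taken as the absolute log2 change over the square root of F. The fit was also run on counts simulated from its own estimates of spread. That run checks the code only, and nothing about these data is read from it. DESeq2 1.42.0, other filters, no scaling factors and each library left out were alternatives. Log2 CPM for pattern distances used a prior count of 1.

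The 6 genes, the gene lists and the tests were chosen with earlier results of these data known. Named relatives are up to 3 per list past the test with the smallest p over the 3 comparisons, plus paralogues sharing a symbol stem with one of the 6 genes; the nearest 2 genes by pattern and the neighbours on each side are also named. Positions come from the RefSeq table of GRCm38.p6, except that of Csprs.

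Marker lists of other cells are given as summed CPM in Ctrl, TGFb and SIS3_TGFb. Dendritic cells had 555 to 780, 442 to 704 and 495 to 868. Mast cells and basophils had 486 to 514, 477 to 526 and 449 to 522. Erythroid cells and megakaryocytes had 36.2 to 46.3, 7.66 to 38.0 and 29.2 to 32.4, and T cells 15.2 to 16.7, 7.79 to 21.9 and 11.8 to 14.2. For dendritic cells, for erythroid cells and megakaryocytes, and for T cells, the lowest TGFb sum was that of TGFb replicate 3. Endothelial cells, neutrophils, fibroblasts and B cells stayed at or below 11.9.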

Additional observations from a re-analysis of the deposited data

How the results depend on the processing

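Over 15 alternative settings, the genes past the test numbered 3455 to 4297 from Ctrl to TGFb (4190 as reported), 5705 to 6868 from Ctrl to SIS3_TGFb (6585) and 4125 to 5191 from TGFb to SIS3_TGFb (5104), all within 1.5 times. For the 6 genes, 257 of 270 values were counted as the same. That total includes the contrasts with SIS3_TGFb, where the choice of large differences favours sameness, so nothing is read from it. From Ctrl to TGFb, 12 of 15 values were the same for Csprs, 7 for Extl1 and 13 for Efnb2. For Elovl7, Esrp2 and Klhl30 all 15 were. From Ctrl to TGFb and from Ctrl to SIS3_TGFb, being the same meant the same direction and side of the threshold, although no test is given for the latter. From TGFb to SIS3_TGFb it meant the same direction and a shift smaller than the larger within-group SD of log2 CPM. The 10 that lost a call from Ctrl to TGFb were 8 of Extl1 and 2 of Efnb2. The cause was not tested. Leaving out single libraries turned the sign of changes near 0: Csprs (-0.524 to 0.064), Gpc1 (-0.047 to 0.041) and Arglu1 (-0.04 to 0.076) from Ctrl to TGFb, Pafah2 from Ctrl to SIS3_TGFb (-0.138 to 0.026), and Hacd2 (-0.031 to 0.018) and Sdc3 (-0.389 to 0.036) from TGFb to SIS3_TGFb. Without scaling factors, Elovl1 (-0.002) and Arglu1 (-0.007) turned from Ctrl to TGFb, and Hacd2 (0.078) and Cd44 (0.03) from TGFb to SIS3_TGFb. With 6 to 17 expected counts per library, a change of Csprs by TGF-β1 smaller than its scatter was not detectable at this depth.

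Whether the replicate numbers pair the libraries could not be decided with 3 libraries per group. Same-numbered libraries had correlations of deviations of -0.01, 0.02 and -0.1 from Ctrl to TGFb, 0.13, 0.03 and 0.1 from Ctrl to SIS3_TGFb, and -0.01, -0.12 and -0.1 from TGFb to SIS3_TGFb. Libraries of unlike number had -0.13 to 0.12, -0.14 to 0.05 and -0.01 to 0.12 in these comparisons. With the replicate block, 3942, 6346 and 4803 genes passed, and no call of the 6 genes changed.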
